A study of Homo sapiens with 20 samples.

Results

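The MAP kinase phosphatases are a family of dual-specificity phosphatases (DUSP) that switch off MAP kinases. The 9 family members described here are DUSP1, DUSP2, DUSP4, DUSP5, DUSP6, DUSP7, DUSP8, DUSP10 and DUSP16, chosen by gene name from the 60271 genes of the count tables. All 9 passed the filter on low counts, which 16522 genes passed in all. The cells were MDA-MB-468, an established epithelial line from a triple negative breast cancer that carries very many EGF receptors. They were serum-starved, and then left untreated as the control or given EGF at 50 ng/mL for 12, 24, 48 or 72 h, as an inducer of epithelial-mesenchymal transition (EMT). Every group had 4 libraries that the labels call biological replicates, 20 in all, and per the labels all groups were seeded and harvested at the same times, so that they differ in how long before harvest EGF was added. No group carries a genetic change, and the one line, one dose and serum-starved state are shared by all of them.

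MAP kinases are active only while both a threonine and a tyrosine of their activation loop are phosphorylated, and the dual-specificity phosphatases remove both phosphates. Many of these phosphatases are themselves transcribed in response to the kinases they act on, so they are known as negative feedback regulators of the EGF receptor, RAS and ERK pathway. DUSP1, DUSP2, DUSP4 and DUSP5 are inducible phosphatases of the nucleus, of which DUSP5 acts on ERK alone. DUSP6 and DUSP7 are ERK-directed phosphatases of the cytoplasm, while DUSP8, DUSP10 and DUSP16 act mainly on the stress-activated kinases JNK and p38.

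In GENCODE release 29 (GRCh38), DUSP1 lies on chromosome 5 (172768090 to 172771195), DUSP2 on chromosome 2 (96143166 to 96145440), DUSP6 on chromosome 12 (89347232 to 89353271) and DUSP7 on chromosome 3 (52048919 to 52056550). DUSP8 lies on chromosome 11 (1554044 to 1571920), DUSP10 on chromosome 1 (221701424 to 221742176), DUSP16 on chromosome 12 (12474210 to 12562383) and DUSP4 on chromosome 8 (29333064 to 29350668), and all of these are on the minus strand. DUSP5, on chromosome 10 (110497838 to 110511544), is on the plus strand. The exons of 8 members overlap no exon of another gene, while 40.5% of the exon bases of DUSP6 are overlapped by the gene AC024909.2 on the opposite strand. The handling of strand is not given in the sources used here, and AC024909.2 itself had 0 to 8 counts per library.

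The libraries held 15611961 to 25856953 counts (median 20398047), of which 7.69 to 16.9% came from mitochondrial genes. This share differed by group, at 9.03 to 12.6% in the controls, 7.69 to 11.3% at 12 h, 11.1 to 13.8% at 24 h, 9.83 to 16.9% at 48 h and 12.3 to 16.4% at 72 h, and its part in the results was not tested. Untreated cells had the epithelial markers KRT18 (788 CPM), KRT19 (380 CPM), EPCAM (181 CPM), KRT8 (146 CPM) and CDH1 (127 CPM), and EGFR at 3474 CPM. PGR was at 0 and ESR1 at 5.03 CPM, while markers of leukocytes, endothelium and fibroblasts were at 0.011 CPM (CD3E and COL3A1) to 6.18 CPM (COL1A1). The libraries EGF 24 h replicate 1 and EGF 72 h replicate 1 stood apart for these genes, a choice made after the values were seen. The first had the lowest value of its group for 7 of the 9 members and the second the highest for 6 of 9. Other libraries came near this, as control replicate 2 and EGF 24 h replicate 4 were highest for 5 of 9. EGF 72 h replicate 3 was lowest for 5 of 9. Results that change without both libraries that stood apart are given below.

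Since the results concern transcript levels, the 250 bases before the transcription start were searched for short sequences bound by factors that act downstream of kinase signaling. The RefSeq promoter table (GRCh38.p14) held 7 of the 9 members. The window of DUSP6 lies wholly within an annotated exon, since its RefSeq start is downstream of its GENCODE start, and those of DUSP10 and DUSP2 lie in exons for 87 and 55 of 250 bases. TGACGTCA, the palindromic cAMP response element, occurred in 2 of the 7, DUSP1 and DUSP8, and in 1.77% of all 27305 promoters, and its part TGACG occurred in the same 2 members and in 21.7% of all promoters. On either strand, no member held the AP-1 element TGANTCA (6.60% of all promoters), the ETS element CCGGAAG (8.82%) or a CArG box (1.14%), and DUSP2 held 1 GCGGGGGCG, an EGR element (4.68%). GGGCGG, the core of a GC box, which can overlap the EGR element, was found in 6 of 7 members and in 42.3% of all promoters. Shown are DUSP1 and DUSP8, which share the cAMP response element, and DUSP7, which holds none. These 3 windows overlap no annotated exon, and capitals mark TGACG on either strand, including TGACGTCA. They are DUSP1 chr5:172771196-172771445, DUSP7 chr3:52056572-52056821 and DUSP8 chr11:1572272-1572521, each given 5′ to 3′ on the minus strand.
DUSP1: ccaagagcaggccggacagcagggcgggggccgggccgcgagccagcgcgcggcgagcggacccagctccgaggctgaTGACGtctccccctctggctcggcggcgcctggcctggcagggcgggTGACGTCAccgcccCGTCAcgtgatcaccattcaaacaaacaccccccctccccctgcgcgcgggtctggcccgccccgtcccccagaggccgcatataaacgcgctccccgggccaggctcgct
DUSP7: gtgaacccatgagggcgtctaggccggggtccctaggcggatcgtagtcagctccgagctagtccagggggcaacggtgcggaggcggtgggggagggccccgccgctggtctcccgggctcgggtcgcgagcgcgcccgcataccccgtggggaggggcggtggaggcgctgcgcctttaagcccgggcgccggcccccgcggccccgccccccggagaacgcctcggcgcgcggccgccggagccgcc
DUSP8: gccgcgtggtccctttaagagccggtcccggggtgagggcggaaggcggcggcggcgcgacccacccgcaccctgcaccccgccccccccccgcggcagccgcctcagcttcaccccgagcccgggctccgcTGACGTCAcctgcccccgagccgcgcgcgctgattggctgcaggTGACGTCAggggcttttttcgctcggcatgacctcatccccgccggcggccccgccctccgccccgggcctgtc
In DUSP1 the palindrome lies at -125 to -118 from the RefSeq start, and in DUSP8 at -118 to -111 and at -74 to -67. The RefSeq start of DUSP8 lies 351 bases upstream of its GENCODE start. A match is a description of the letters in these windows only, and a link between motifs and transcript levels was not tested.

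CPM values are counts scaled to the TMM-normalized library size, and ± gives the SD among the 4 libraries (n = 4). The adjusted p comes from the quasi-likelihood test of edgeR, corrected by Benjamini-Hochberg for the 16522 genes, with a threshold of 0.05, and fold changes are given on the log2 scale with their standard error (SE). All comparisons with the control use the same 4 control libraries. The p values set each difference against the spread between libraries within groups, estimated from all 20 libraries in one fit. Variation beyond these libraries is not covered. In bulk RNA, a change in the level per cell and a change in the number of cells that use a gene cannot be told apart.

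EGF-treatment upregulated most of the family at every time. At 12 h, 8 members rose (32.9% of all genes tested rose) and 1 fell (36.5% of all genes), and 6 of the 8 rose by more than 1.5-fold (20.3% of all genes). At 24 h, 7 rose (29.2% of all genes) and 1 fell (29.6%), with 5 above 1.5-fold (16.9%). After 48 h, 7 rose (24% of all genes), none fell (21.8%), and 6 were above 1.5-fold (15.3%). After 72 h, 7 rose (30.6% of all genes), none fell (31%), and all 7 were above 1.5-fold (20.2%). In this order of times, the median log2 fold changes of the 9 members were 1.69, 0.76, 0.75 and 2.05, where those of all genes tested were -0.054, -0.0071, 0.0099 and -0.0090. At 48 and 72 h, and from 48 to 72 h, 0 members were lower also at an unadjusted p under 0.05 in the edgeR test, and 0 were called lower by the DESeq2 Wald test. The shares of all genes lower by these other criteria were not counted. The counts above 1.5-fold are of estimated fold changes. Tested against a 1.5-fold change (glmTreat), DUSP10 did not pass at 24 h, DUSP1, DUSP4 and DUSP7 did not at 48 h, and DUSP8 did not at 72 h. DUSP16 was the member that fell. A difference among the 5 groups was found for 9 of 9 members, a share near that of all genes (88.6%).

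**Figure D1:**
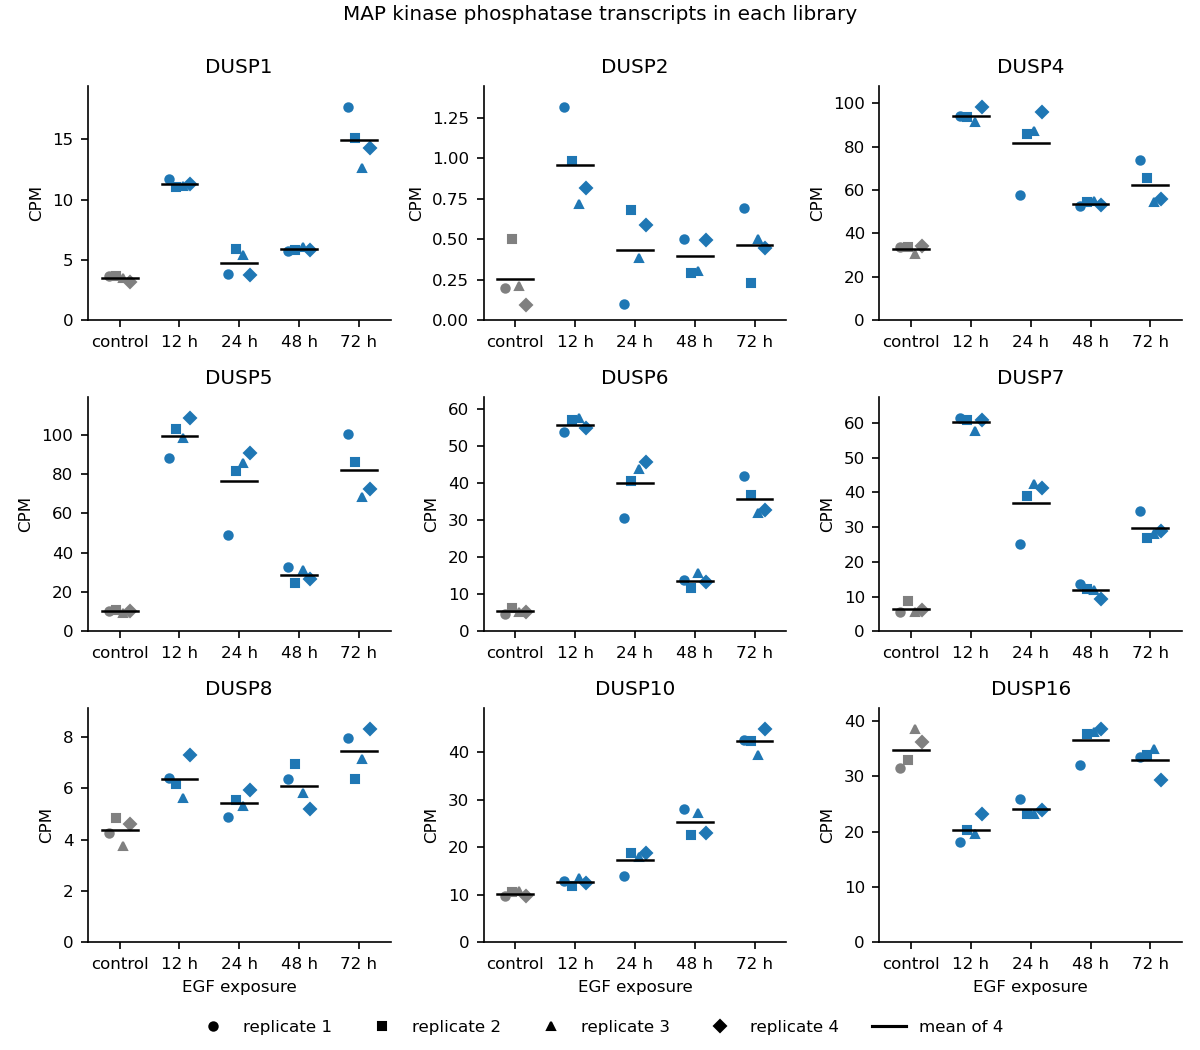
Level of each phosphatase (CPM, linear axes starting at 0) in the control and at each time of EGF, where each symbol is 1 library, shaped by replicate number, and each line is the mean of 4. DUSP4, DUSP5, DUSP6 and DUSP7 were highest at 12 h, DUSP1 and DUSP10 at 72 h, and DUSP16 was lowest at 12 h.

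DUSP1, an immediate early phosphatase that acts on ERK, JNK and p38, rose at 12 h, fell back at 24 h and was highest at 72 h. Its level in the 4 control libraries was 3.67, 3.66, 3.50 and 3.17 CPM, and at 12 h it was 11.7, 11.1, 11.1 and 11.3 CPM. At 24 h the libraries had 3.81, 5.93, 5.39 and 3.76 CPM, and at 48 h 5.76, 5.87, 6.08 and 5.80 CPM. All of these lie above the controls, the 24 h libraries by the smallest margin, and replicates 1 and 4 at 24 h were close to the control. At 72 h the values were 17.7, 15.1, 12.6 and 14.2 CPM, each of them above every 12 h library. The log2 fold change was 1.69 (SE 0.13, adjusted p = 5.58e-11) at 12 h, 0.42 (SE 0.14, adjusted p = 0.0127) at 24 h, 0.75 (SE 0.14, adjusted p = 8.01e-05) at 48 h and 2.09 (SE 0.13, adjusted p = 1.29e-12) at 72 h. The level at 72 h exceeded that at 12 h by a log2 fold change of 0.40 (SE 0.12, adjusted p = 0.00443). Besides glmTreat, which tests against a 1.5-fold change, the call at 24 h was lost with scaling by library size only (0.28, adjusted p = 0.0850), with only the 8 libraries compared (adjusted p = 0.0539) and without EGF 24 h replicate 2 (0.29, adjusted p = 0.0819).

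DUSP2, a nuclear phosphatase best known from activated lymphocytes, was barely detected, with 2 to 26 counts per library. The controls had 0.201, 0.505, 0.213 and 0.0961 CPM, and the 12 h libraries 1.31, 0.981, 0.718 and 0.813 CPM. The groups did not overlap at 12 h, where the log2 fold change was 1.86 (SE 0.45, adjusted p = 7.29e-04). The mean was 0.437 ± 0.256 CPM at 24 h, 0.399 ± 0.116 CPM at 48 h and 0.468 ± 0.192 CPM at 72 h, and these libraries overlapped the controls. Their log2 fold changes of 0.73, 0.59 and 0.88 did not pass (adjusted p = 0.211, 0.340 and 0.120, with SE from 0.48 to 0.50). Without control replicate 2, the highest control, those at 24 and 72 h were 1.31 (adjusted p = 0.0424) and 1.46 (adjusted p = 0.0211), and without EGF 24 h replicate 1 that at 24 h was 1.08 (adjusted p = 0.0470). Without both libraries that stood apart it was also 1.08 (adjusted p = 0.0440), and the change from 48 to 72 h, which was not called, went from 0.28 to -0.013.

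DUSP4, a nuclear phosphatase induced by ERK signaling, was among the more abundant members and rose at all times. It had 34.0, 33.7, 30.3 and 34.0 CPM in the controls and 94.0, 93.5, 91.3 and 98.1 CPM at 12 h. At 24 h it had 57.8, 85.9, 87.0 and 96.1 CPM, at 48 h 52.7, 54.6, 54.9 and 53.0 CPM, and at 72 h 74.0, 65.4, 54.3 and 55.8 CPM. No EGF library overlapped the controls, and 72 h replicates 3 and 4 lay near the 48 h libraries. Against the control, the log2 fold change was 1.51 (SE 0.11, adjusted p = 2.78e-11) at 12 h, 1.31 (SE 0.11, adjusted p = 6.40e-10) at 24 h, 0.71 (SE 0.11, adjusted p = 1.78e-05) at 48 h and 0.92 (SE 0.11, adjusted p = 1.84e-07) at 72 h.

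DUSP5, the nuclear phosphatase that binds and inactivates ERK, showed one of the widest ranges of the family. The control libraries had 10.6, 11.0, 9.39 and 10.4 CPM, and those at 12 h 88.2, 103, 98.5 and 108 CPM. At 24 h the values were 48.8, 81.6, 85.8 and 90.6 CPM, at 48 h 32.6, 24.4, 31.2 and 26.8 CPM, and at 72 h 100.4, 86.2, 68.4 and 72.6 CPM. All 48 h libraries lay above the controls and below all libraries of the other times. Fold changes on the log2 scale were 3.27 (SE 0.17, adjusted p = 2.75e-13) at 12 h, 2.89 (SE 0.17, adjusted p = 3.07e-12) at 24 h, 1.47 (SE 0.17, adjusted p = 2.80e-07) at 48 h and 2.99 (SE 0.17, adjusted p = 1.42e-12) at 72 h. The difference between 72 and 12 h did not pass the test (-0.28, SE 0.15, adjusted p = 0.0968).

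DUSP6, the cytoplasmic phosphatase widely used as a transcript readout of ERK activity, had the largest rise of the family at 12 h. It had 4.77, 6.26, 5.21 and 5.19 CPM in the controls and 53.6, 56.9, 57.4 and 54.9 CPM at 12 h. The values were 30.5, 40.4, 43.9 and 45.6 CPM at 24 h, 13.9, 11.7, 15.8 and 13.2 CPM at 48 h, and 41.7, 36.7, 32.0 and 32.6 CPM at 72 h. As for DUSP5, the 48 h libraries lay between the controls and all other EGF libraries. The log2 fold change was 3.37 (SE 0.13, adjusted p = 1.20e-16) at 12 h, a 10.4-fold rise, and 2.90 (SE 0.13, adjusted p = 2.64e-15) at 24 h. It was 1.35 (SE 0.13, adjusted p = 1.01e-08) at 48 h and 2.74 (SE 0.13, adjusted p = 5.69e-15) at 72 h. DUSP6 was lower at 72 h than at 12 h (-0.63, SE 0.11, adjusted p = 2.08e-05).

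DUSP7, the close relative of DUSP6, followed a similar course. Its control libraries had 5.68, 8.66, 5.46 and 6.15 CPM, and its 12 h libraries 61.3, 61.0, 57.7 and 60.8 CPM. It had 25.2, 38.9, 42.5 and 41.2 CPM at 24 h, 13.7, 12.2, 11.9 and 9.34 CPM at 48 h, and 34.7, 27.0, 28.1 and 28.99 CPM at 72 h. At 48 h, replicate 4 lay close to control replicate 2, though the groups did not overlap. On the log2 scale the change was 3.21 (SE 0.16, adjusted p = 2.58e-14) at 12 h, 2.502 (SE 0.16, adjusted p = 3.29e-12) at 24 h, 0.85 (SE 0.16, adjusted p = 1.66e-04) at 48 h and 2.19 (SE 0.16, adjusted p = 2.95e-11) at 72 h. At 72 h DUSP7 was lower than at 12 h by a log2 fold change of -1.01 (SE 0.14, adjusted p = 1.06e-06).

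DUSP8, a JNK- and p38-directed phosphatase that is prominent in the brain, rose at every time and by the smallest called amount of the family at 48 and 72 h. Its mean was 4.37 ± 0.470 CPM in the controls, 6.38 ± 0.704 CPM at 12 h, 5.43 ± 0.442 CPM at 24 h, 6.09 ± 0.743 CPM at 48 h and 7.45 ± 0.868 CPM at 72 h. Every EGF library lay above all controls, the closest being 4.89 CPM at 24 h against 4.84 CPM in the highest control. The rises on the log2 scale were 0.55 (SE 0.12, adjusted p = 4.25e-04) at 12 h, 0.31 (SE 0.13, adjusted p = 0.0369) at 24 h, 0.47 (SE 0.12, adjusted p = 0.00301) at 48 h and 0.77 (SE 0.12, adjusted p = 9.11e-06) at 72 h. With scaling by library size only, the call at 12 h was lost (0.26, adjusted p = 0.0624). The call at 24 h was lost in 12 of 32 alternatives, among them upper quartile scaling (0.26, adjusted p = 0.0909), the DESeq2 Wald test (0.32, adjusted p = 0.0567) and leaving out control replicate 3 (0.25, adjusted p = 0.118).

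DUSP10, a phosphatase of JNK and p38, rose with each longer treatment, with no fall at 48 h. The control libraries had 9.79, 10.7, 10.7 and 9.66 CPM, the 12 h libraries 13.0, 11.8, 13.5 and 12.4 CPM, and the 24 h libraries 13.9, 18.8, 17.9 and 18.8 CPM. At 48 h it had 28.2, 22.6, 27.2 and 23.1 CPM, and at 72 h 42.5, 42.3, 39.4 and 44.8 CPM. No library of one time overlapped those of the next. Its log2 fold change was 0.31 (SE 0.10, adjusted p = 0.00844) at 12 h, 0.76 (SE 0.099, adjusted p = 5.25e-07) at 24 h, 1.30 (SE 0.097, adjusted p = 8.98e-11) at 48 h and 2.05 (SE 0.097, adjusted p = 7.60e-15) at 72 h. The call at 12 h was lost with scaling by library size only (0.025, adjusted p = 0.828) and by upper quartiles (0.15, adjusted p = 0.180), while those at 24, 48 and 72 h held under both.

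DUSP16, a further JNK-directed phosphatase, was the only one of the 9 members called lower against the control at any time. It had 31.4, 33.0, 38.5 and 36.2 CPM in the controls and 18.1, 20.3, 19.6 and 23.1 CPM at 12 h. At 24 h the values were 25.8, 23.2, 23.1 and 23.9 CPM, still below all controls. They were 32.1, 37.6, 37.95 and 38.5 CPM at 48 h and 33.4, 33.9, 34.96 and 29.3 CPM at 72 h, where they overlapped the controls. The log2 fold change was -0.78 (SE 0.087, adjusted p = 2.93e-08) at 12 h and -0.53 (SE 0.086, adjusted p = 1.16e-05) at 24 h. At 48 h it was 0.072 (SE 0.084, adjusted p = 0.511) and at 72 h -0.079 (SE 0.085, adjusted p = 0.433), and with factors per gene from the deposited normalized values these had the opposite sign (-0.074 and 0.032, also not called).

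**Figure D2:**
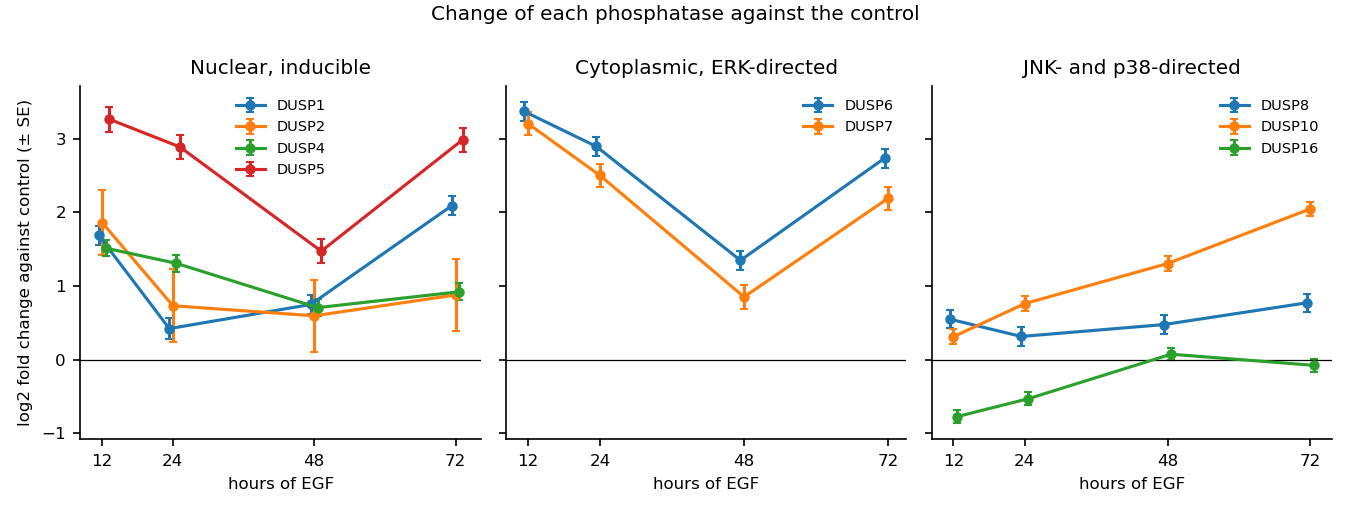
Log2 fold change of each phosphatase against the control (vertical axis, bars are ± SE from the edgeR fit) by hours of EGF, in 3 panels by where the proteins act and on which kinases. DUSP5, DUSP6 and DUSP7 dip at 48 h, DUSP10 climbs from 0.31 to 2.05, and DUSP16 starts at -0.78 and is near 0 from 48 h on.

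More members fell than rose between 12 and 24 h. There, 5 members fell (25.9% of all genes tested fell) and 2 rose (27.9% of all genes). DUSP1 fell by 1.27 on the log2 scale (SE 0.13, adjusted p = 2.74e-08), DUSP7 fell by 0.71 (SE 0.14, adjusted p = 1.68e-04) and DUSP6 fell by 0.48 (SE 0.11, adjusted p = 7.97e-04). DUSP10 rose by 0.45 (SE 0.098, adjusted p = 4.95e-04). The other calls were less secure. Without EGF 24 h replicate 1, 4 members were called in place of 7, and the lost calls were those of DUSP2 (-1.13 with all libraries, -0.78 and adjusted p = 0.112 without), DUSP5 (-0.38 with all libraries, -0.21 and adjusted p = 0.124 without) and DUSP16 (0.24 with all libraries, 0.21 and adjusted p = 0.0795 without). Without both libraries that stood apart, the same 3 were not called (adjusted p = 0.103, 0.0713 and 0.0962). DUSP5 was also not called with a replicate block (-0.38, adjusted p = 0.0672). DUSP4 (-0.21, SE 0.11) and DUSP8 (-0.24, SE 0.12) did not pass (adjusted p = 0.114 and 0.113), although without EGF 24 h replicate 4 DUSP4 did (-0.30, adjusted p = 0.0325).

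Between 24 and 48 h, DUSP4, DUSP5, DUSP6 and DUSP7 fell (4 of 9 members, 24.3% of all genes) while DUSP1, DUSP10 and DUSP16 rose (3 of 9 members, 25.9% of all genes). DUSP7 fell by 1.65 on the log2 scale (SE 0.15, adjusted p = 5.63e-09), DUSP6 fell by 1.55 (SE 0.12, adjusted p = 2.32e-10), DUSP5 fell by 1.42 (SE 0.15, adjusted p = 1.80e-07) and DUSP4 fell by 0.60 (SE 0.11, adjusted p = 8.85e-05). No library at 48 h overlapped those at 24 h for these 4 members, and the share of all genes that separate in this way was not counted. DUSP16 rose by 0.60 (SE 0.086, adjusted p = 3.83e-06) and DUSP10 by 0.54 (SE 0.094, adjusted p = 4.40e-05). The rise of DUSP1 (0.33, SE 0.13, adjusted p = 0.0446) was lost in 18 of 32 alternatives, among them the DESeq2 Wald test (0.32, adjusted p = 0.0647), leaving out EGF 24 h replicate 4 (0.23, adjusted p = 0.186) or replicate 1 (0.23, adjusted p = 0.167), and leaving out both libraries that stood apart (0.23, adjusted p = 0.141).

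Between 48 and 72 h, 5 members rose (17.9% of all genes tested) and none fell (17.9% of all genes). The rise was 1.51 for DUSP5 (SE 0.15, adjusted p = 1.31e-07), 1.39 for DUSP6 (SE 0.12, adjusted p = 2.36e-09), 1.35 for DUSP1 (SE 0.12, adjusted p = 1.09e-08), 1.34 for DUSP7 (SE 0.15, adjusted p = 2.49e-07) and 0.74 for DUSP10 (SE 0.091, adjusted p = 8.45e-07), all on the log2 scale. Without both libraries that stood apart these rises were 1.40, 1.30, 1.25, 1.25 and 0.74, and all 5 remained called. DUSP8 came close (0.30, SE 0.12, adjusted p = 0.0590) and passed with the DESeq2 Wald test (adjusted p = 0.0479) and with RLE scaling (adjusted p = 0.0392). DUSP4 did not pass (0.22, SE 0.11, adjusted p = 0.136), although without EGF 24 h replicate 1 it did (adjusted p = 0.0387). DUSP16 was at -0.15 (SE 0.085, adjusted p = 0.173) and passed with scaling by library size only (-0.24, adjusted p = 0.0381).

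The level at 48 h was compared with the mean of 24 and 72 h. By this contrast 5 members were lower at 48 h (21.8% of all genes) and 1 was higher (23.7% of all genes). DUSP7 was lower by a log2 difference of -1.50 (SE 0.13, adjusted p = 7.58e-09), DUSP6 by -1.47 (SE 0.11, adjusted p = 1.53e-10), DUSP5 by -1.47 (SE 0.14, adjusted p = 3.79e-08), DUSP1 by -0.51 (SE 0.11, adjusted p = 7.33e-04) and DUSP4 by -0.41 (SE 0.097, adjusted p = 0.00142). For DUSP5, DUSP6 and DUSP7 all 48 h libraries were below all libraries of both neighbours. How many of all genes separate in this way was not counted. The 48 h libraries of DUSP1 overlapped the 24 h libraries, with a higher mean at 48 h (5.88 ± 0.141 CPM) than at 24 h (4.72 ± 1.11 CPM). For DUSP4, 2 of the 48 h libraries overlapped the 72 h libraries. DUSP16 was higher at 48 h (0.38, SE 0.073, adjusted p = 1.82e-04), a call that was lost with factors per gene (0.16, adjusted p = 0.391). DUSP8 (-0.067, SE 0.11) and DUSP10 (-0.099, SE 0.080) did not pass.

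Scaling moved all genes at some times, which bears on the small changes above. With library size only, the median log2 fold change of all genes tested shifted by -0.28 at 12 h, -0.14 at 24 h, 0.14 from 12 to 24 h and 0.15 from 24 to 48 h, and with upper quartiles by -0.16 at 12 h and 0.12 from 12 to 24 h. The share of calls that were higher was 47.4% at 12 h with TMM, 30.2% with library size only and 37.2% with upper quartiles. It was 49.6% with TMM and 36.3% with library size only at 24 h, and 51.9% with TMM, 68.6% with library size only and 66.1% with upper quartiles from 12 to 24 h. From 24 to 48 h it was 51.5% with TMM and 71.8% with library size only, and from 48 to 72 h 50.0% and 33.8%.

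Per length of exon, EGF-treatment changed which phosphatase transcript was the most abundant. In the controls the order, in CPM per kb of exon, was DUSP16 (6.08 ± 0.555), DUSP4 (4.55 ± 0.245), DUSP5 (3.96 ± 0.264), DUSP10 (3.50 ± 0.193), DUSP1 (1.73 ± 0.115), DUSP6 (1.16 ± 0.137), DUSP7 (1.15 ± 0.262), DUSP8 (0.946 ± 0.102) and DUSP2 (0.131 ± 0.0907). The libraries of DUSP4 and DUSP5, of DUSP5 and DUSP10, of DUSP6 and DUSP7 and of DUSP7 and DUSP8 overlapped, so these neighbours were not separated. At 12 h DUSP5 led with 38.1 ± 3.28 CPM per kb, followed by DUSP4 (13.0 ± 0.390), DUSP6 (12.0 ± 0.376) and DUSP7 (10.7 ± 0.300), and DUSP16 was the 7th with 3.54 ± 0.364. No neighbours overlapped at 12 h. DUSP5 also led at 24 h (29.3 ± 7.24), at 48 h (11.0 ± 1.46, overlapping DUSP10 with 8.67 ± 0.966) and at 72 h (31.3 ± 5.55), where DUSP10 was the second with 14.5 ± 0.769. DUSP2 was the lowest of the 9 in every group. The order depends on the length used, the merged exons of all annotated transcripts. In CPM, DUSP4 had a higher mean than DUSP5 at 24 h (81.7 ± 16.6 against 76.7 ± 18.9) and at 48 h (53.8 ± 1.11 against 28.7 ± 3.81). DUSP5 had the higher mean in CPM at 12 and 72 h.

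Summed over the 9 members, the level was 23.2 ± 0.780 CPM per kb in the controls. It reached 89.1 ± 3.74 at 12 h, then declined to 69.7 ± 13.3 at 24 h and 42.9 ± 2.59 at 48 h, and was back at 82.4 ± 9.56 after 72 h. Every EGF library lay above all controls, and the libraries at 48 h (40.4 to 45.4 CPM per kb) lay below those of all other EGF groups. DUSP5 held 17.1 ± 1.00% of this sum in the controls, 42.7 ± 1.98% at 12 h and 41.7 ± 2.92% at 24 h. Its share was 25.5 ± 1.99% at 48 h and 37.8 ± 2.35% after 72 h. DUSP16 held 26.2 ± 2.60% in the controls, 3.97 ± 0.244% at 12 h and 14.9 ± 1.83% at 48 h. The JNK- and p38-directed DUSP10 held 15.1 ± 0.707% in the controls, 4.89 ± 0.436% at 12 h and 20.2 ± 1.09% at 48 h. These sums use the merged exons of all annotated transcripts as the length, and the transcripts in use were not measured.

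**Figure D3:**
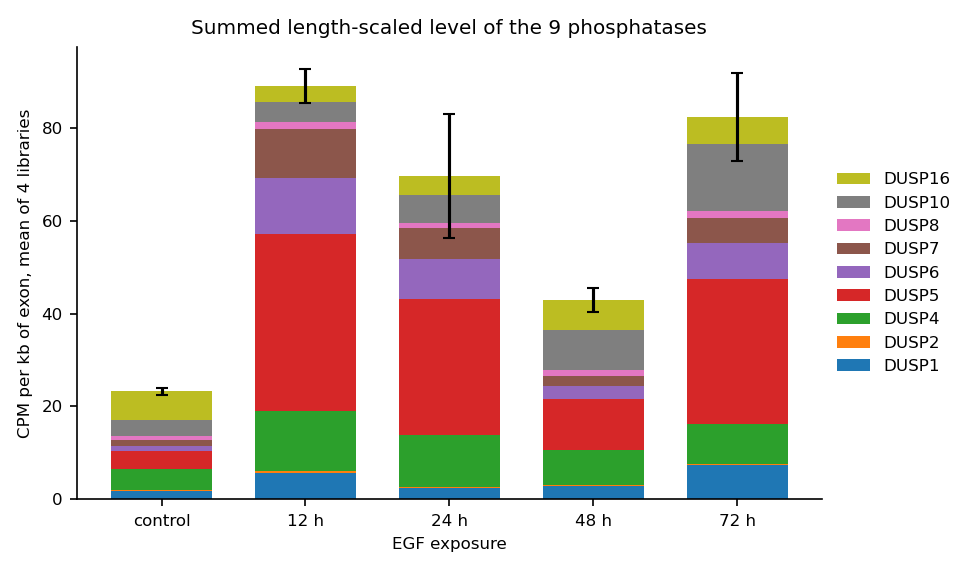
Summed level of the 9 phosphatases in CPM per kb of exon (vertical axis from 0), stacked by gene, for the control and each time of EGF, where each segment is a mean of 4 libraries and the bars are ± SD of the sum over libraries. The sum rises from 23.2 in the control to 89.1 at 12 h, is 42.9 at 48 h and 82.4 at 72 h, with DUSP5 the largest segment in all 4 EGF groups.

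The balance between members was also measured as ratios of counts within each library, which do not depend on scaling. These 4 ratios were chosen after the values were seen, and each was compared with the control at 4 times by a two-sided exact permutation test of 4 against 4 libraries, 16 tests in all. The smallest p such a test can give is 0.0286, or 0.0327 after Benjamini-Hochberg adjustment here. The adjustment does not cover the choice of ratios, so these p values only describe how the libraries separate. The log2 ratio of the ERK-directed DUSP6 to the JNK- and p38-directed DUSP10 was -0.94 ± 0.13 in the controls, 2.14 ± 0.099 at 12 h and 1.203 ± 0.097 at 24 h. Later it was -0.89 ± 0.11 (48 h) and -0.25 ± 0.18 (72 h). It was above all controls at 12, 24 and 72 h (exact p = 0.0286 each), and at 48 h it overlapped them (difference 0.047, exact p = 0.629). The log2 ratio of DUSP10 to DUSP16 was -1.76 ± 0.13 in the controls and 0.36 ± 0.18 at 72 h, and was above all controls at all 4 times (exact p = 0.0286 each). The log2 ratio of DUSP5 to DUSP4 was -1.67 ± 0.044 in the controls, 0.076 ± 0.11 at 12 h, -0.91 ± 0.21 at 48 h and 0.39 ± 0.045 at 72 h, also above all controls at each time (exact p = 0.0286 each). DUSP6 and DUSP7 kept closer to each other. Their log2 ratio was -0.26 ± 0.16 in the controls and -0.11 ± 0.079 at 12 h (exact p = 0.171), and it was higher at 24 h (0.13 ± 0.11), 48 h (0.22 ± 0.28) and 72 h (0.27 ± 0.13), with exact p = 0.0286 each. At 48 h the groups barely separated, with EGF 48 h replicate 2 at -0.0649 and control replicate 3 at -0.0693.

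**Figure D4:**
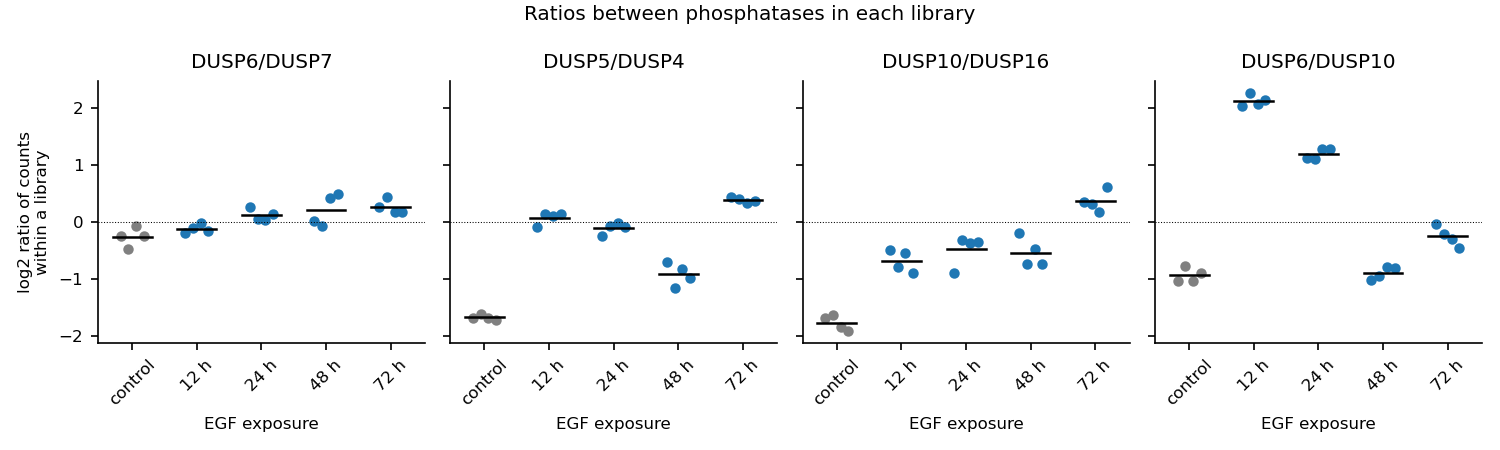
Log2 ratio of the counts of 2 phosphatases within each library (vertical axis) for the control and each time of EGF, where points are libraries and lines are means of 4. DUSP6/DUSP10 moves from -0.94 to 2.14 at 12 h and is back at -0.89 at 48 h, while DUSP10/DUSP16 stays above the controls at all times.

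The pattern over the 5 groups was compared with that of 10786 genes with a mean of at least 5 CPM, by the root-mean-square difference of the group mean log2 CPM, each gene centred on its own mean. This was done for DUSP5, DUSP6 and DUSP7, the 3 members with the widest range. The closest genes to DUSP7 were SPRY4, a Sprouty inhibitor of receptor tyrosine kinase signaling (0.0586), MAST4, a microtubule-associated kinase (0.0888), and PDE4B, a cAMP phosphodiesterase (0.137). Closest to DUSP6 were EMP1, an epithelial membrane protein (0.0910), THSD4, a matrix protein (0.115), and SPRY2, another Sprouty (0.115). DUSP5 was closest to IER3, an early response gene (0.105), to DUSP6 (0.123) and to EMP1 (0.137). The levels differed widely, as EMP1 was at 55.5 ± 1.89 CPM in the controls and 540.0 ± 18.8 CPM at 12 h, and MAST4 at 3.23 ± 0.515 and 32.8 ± 1.32 CPM. SPRY4 was at 8.69 ± 1.11 CPM in the controls, 73.5 ± 4.28 at 12 h, 14.9 ± 1.54 at 48 h and 38.8 ± 5.27 at 72 h. Among the members themselves the closest pairs were DUSP5 and DUSP6 (0.123) and DUSP6 and DUSP7 (0.200), and the most distant were DUSP6 and DUSP16 (1.496). These are descriptions over 5 group means of the same 20 libraries.

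**Figure D5:**
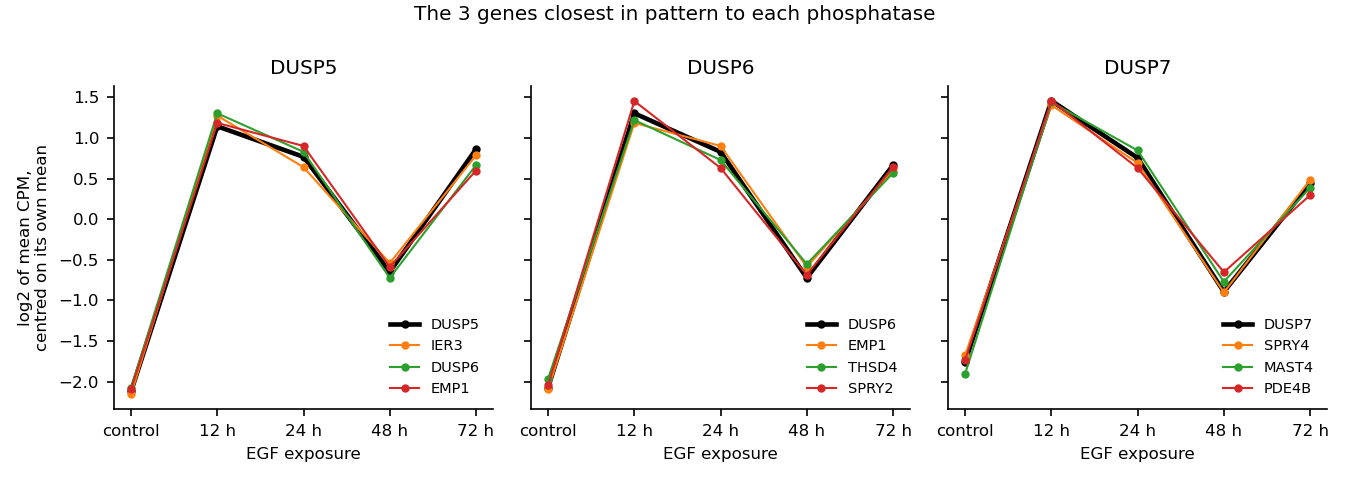
Pattern of DUSP5, DUSP6 and DUSP7 (black) and of the 3 genes closest to each (colored), as the log2 of the mean CPM of 4 libraries, centred on the gene's own mean (vertical axis), for the control and each time of EGF. All lines rise from the control to 12 h, fall to 48 h and rise again at 72 h.

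Other genes of the same signaling are given from lists, as counts. The lists were chosen with earlier results of these data known, so the counts describe these genes and are not independent support. Of 14 further transcripts used as readouts of ERK output, 14 rose at 12 h (32.9% of all genes), 13 rose and 1 fell at 24 h (29.2% and 29.6% of all genes), 10 rose and 2 fell at 48 h (24% and 21.8%), and 13 rose and 1 fell at 72 h (30.6% and 31%). Their median log2 fold change was 1.46, 1.78, 0.85 and 1.73. Like DUSP5, DUSP6 and DUSP7, most of them fell from 24 to 48 h (13 fell and 1 rose, against 24.3% and 25.9% of all genes) and rose from 48 to 72 h (11 rose and none fell, against 17.9% of all genes in each direction), and 12 of 14 were lower at 48 h than the mean of 24 and 72 h (21.8% of all genes). Those with the smallest adjusted p at 12 h include the Sprouty genes SPRY2 (3.50) and SPRY4, and CCND1, the cyclin of the G1 phase (1.72, and 0.035 at 48 h, adjusted p = 0.760). SPRY2, SPRY4 and IER3, all on this list, were also among the genes closest in pattern to the members. FOSL1, an AP-1 subunit, was at 6.47 at 12 h and 3.19 at 48 h. EGR1, an immediate early factor, was the one that fell at 24 h (-1.25).

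The kinase pathways that the phosphatases act on are given next. Of the 18 genes from EGFR and RAS to ERK, 10 rose and none fell at 12 h (32.9% and 36.5% of all genes), with a median log2 fold change of 0.21. At 48 h, 4 rose and 6 fell, with a median of -0.056, which is not far from the shares of all genes (24% and 21.8%). At 12 h EGFR rose by 1.76, MAP2K1, which encodes a kinase of ERK, by 0.74, and GRB2, an adaptor of the receptor, by 0.61. Of 13 genes of the JNK, p38 and ERK5 kinases and their activators, 8 rose and 3 fell at 12 h, where 32.9% of all genes rose and 36.5% fell. MAP2K3, an activator of p38, rose (1.58), while MAP2K6, another such activator, fell from 22 to 37 counts per control library to 0 to 3 counts at 12 h. MAPK10, a JNK, fell by 1.04 on the log2 scale. Of the 17 other dual-specificity phosphatases listed, 13 passed the filter, and 5 rose and 5 fell at 12 h, shares near those of all genes (32.9% and 36.5%). DUSP14, a small atypical member, rose from 50.7 ± 3.39 to 98.2 ± 2.45 CPM, DUSP22 fell (-0.38), and DUSP19 fell from 59 to 118 counts per control library to 3 to 6 counts at 12 h. DUSP9, the remaining phosphatase of the ERK-directed class, had 4 to 24 counts per library and was called at 72 h alone (1.27, adjusted p = 0.00261). The 3 tyrosine phosphatases that bind MAP kinases, PTPN5, PTPN7 and PTPRR, were at 0 counts in every control library and did not pass the filter, and PTPRR reached at most 9 counts in a library.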

How the data were processed

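Transcripts were measured by RNA-seq in 20 libraries of MDA-MB-468 cells (Lexogen Corall mRNA kit, single-end reads, Illumina NS500). The authors deposited 10 tables with the same estimated counts per gene, rounded to whole numbers, a normalized value per gene and library (a score on the scale of counts), and their own fold changes and p-values, which were not used. The study's methods name DESeq2 in the SARTools pipeline for normalization, but the deposited normalized values differ from the counts by factors that vary between genes (22.9% of values over 1.1-fold from the library's median factor), and how those arose is not given in the sources used here. The submitters' processing notes name the hg38 build. The aligner, annotation, strand setting and use of molecular identifiers are not given in the sources used here, so counts may hold PCR duplicates.

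The deposited counts were analyzed in edgeR 4.0.16 (R 4.3.3) with TMM normalization, filterByExpr and a robust quasi-likelihood model fitted to the 20 libraries at once, group by group, with Benjamini-Hochberg adjustment over 16522 genes and a threshold of 0.05. Prior counts were 0.125 for fold changes and 2 for patterns. The procedure was run on simulated data in which few genes changed, unlike here, so that run does not test the scaling. Groups were taken from the labels. The members and lists were chosen with earlier results of these data known. Named are all members, for the 3 members with the widest range the 3 genes closest in pattern, and list genes with the smallest adjusted p at 12 h. EGR1, DUSP9 and the tyrosine phosphatases were also named after their values were seen, as were the motifs and ratios chosen. Alternatives were library size, upper quartile and RLE scaling, gene-wise factors taken from the normalized values of the deposit, the DESeq2 1.42.0 Wald test, 2 other filters, only the 8 libraries compared, a replicate block, glmTreat with a limit of 1.5-fold, another prior count (2), leaving out each library, and, chosen after seeing the data, leaving out EGF 24 h replicate 1 and EGF 72 h replicate 1 together. Exon lengths came from GENCODE 29 and promoters from RefSeq. At 15611961 to 25856953 counts per library, a member below 1 CPM, such as DUSP2, rests on few counts. The variance between replicates was 3.53 to 57.5 times counting noise over 30 pairs.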

Additional observations from a re-analysis of the deposited data

Results flagged for a closer look

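In 3 of the 45 sets of 4 libraries (9 members in 5 groups), 1 library lay far from the other 3 relative to the range of the set, by Dixon's criterion at the 95% level. Chance flags about 1 in 20 such sets. DUSP4 in control replicate 3 was at 30.3 CPM, where the other controls had 33.7 to 34.0 CPM. DUSP7 in EGF 12 h replicate 3 was at 57.7 CPM, with the others at 60.8 to 61.3 CPM. DUSP16 in EGF 48 h replicate 1 was at 32.1 CPM, with the others at 37.6 to 38.5 CPM.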

How the results depend on the processing

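Of 72 member results (9 members in 8 comparisons), 56 were called, and 33 of these kept direction and side of the threshold in every alternative, up to 32 each. These pooled counts were not made over all genes. Against a 1.5-fold change (glmTreat), fewer members were called at 12 h (7), 24 h (4), 48 h (3) and 72 h (6), from 12 to 24 h (1), from 24 to 48 h (3) and from 48 to 72 h (4). The share of all genes called was not counted for the alternatives. Counts of members called under them, here and above, thus describe the members alone. Leaving out 1 library gave 4 to 8 members called from 12 to 24 h, the lowest without EGF 24 h replicate 1, and leaving out both libraries that stood apart gave 4. For results that were not called, the sign turned in some alternatives, and the cause was not tested. With library size only, the 48 h contrast was 0.025 for DUSP10 and 0.054 for DUSP8, and DUSP2 from 24 to 48 h was at 0.020. With factors per gene, DUSP16 was at -0.074 at 48 h, 0.032 at 72 h and 0.11 from 48 to 72 h. Leaving out 1 library, DUSP2 ran from -0.49 to 0.15 from 24 to 48 h and from -0.00053 to 0.50 from 48 to 72 h, where it was at -0.013 without both libraries.

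With a replicate block (the replicate number as a term), 1 of 72 member results changed, DUSP5 from 12 to 24 h (-0.38, adjusted p = 0.0672), and 6 in place of 7 members were called there. The block changed no other call. Same-numbered libraries of different groups had correlations of their deviations from -0.24 to 0.35 over 40 pairs, with 5 over 0.1 and the own number highest in 11 of 40, so the numbers were not taken to pair the libraries. DUSP2 had no value with at least 10 counts in every library or with factors per gene. Depth limits DUSP2, with at most 26 counts in a library.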
